A study of Mus musculus with 8 samples.

Results

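The 5 genes described here encode the surface proteins by which mouse hematopoietic stem cells (HSCs) were sorted for single-cell RNA sequencing. They are Ly6a (Sca-1), Kit (c-Kit) and Slamf1 (CD150), for which the cells were stained as positive, and Cd34 and Cd48, for which they were stained as negative. They were chosen by name because they define the gate, and all 5 were among the 10720 genes of the expression table. The comparison asks how the transcripts of these proteins were distributed in cells that had already passed the protein gate, and whether their level and their joint detection differed between cells labelled WT and KO for Med23, a subunit of the Mediator complex that links transcription factors to RNA polymerase II.

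Cells came from the bone marrow of adult C57BL/6 mice, with 4 libraries per genotype. WT mice were Mx1-cre- Med23 L/L littermates, and KO mice were Mx1-cre+ Med23 L/L animals in which poly(I:C), an inducer of interferon, switched on the recombinase, so both groups carried the floxed allele. The Mx1 promoter answers to interferon in many cell types, inside and outside the blood system. Whether the WT mice of this experiment received poly(I:C), and how long after injection the cells were taken, is not given in the sources used here. Lineage-negative, Sca-1+, c-Kit+ (LSK) cells with the CD150+ CD34- CD48- phenotype were sorted and picked by hand.

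The CD150+ CD48- code of the SLAM receptors separates stem cells from most multipotent progenitors, which carry CD48. Kit is the receptor tyrosine kinase for stem cell factor, and Sca-1 is a lipid-anchored protein of the Ly6 family whose gene is induced by interferon. CD34 is a sialomucin that is low on long-term HSCs of adult mice and appears on short-term HSCs and progenitors. A surface protein can be present without its messenger RNA and the reverse, so a gate on proteins does not fix the transcripts.

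Messenger RNA was copied from its poly(A) tail with primers that mark the cell and the molecule. Primer 1 of the set is shown because it defines the unit of every value below, with the cell barcode and then the random bases in capitals:
barcoded oligo-dT primer 1: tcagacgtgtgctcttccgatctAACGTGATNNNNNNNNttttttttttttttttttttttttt
The 8 bases after the adapter name the cell, and the 8 N form the unique molecular identifier (UMI), by which all copies made from 1 captured transcript are counted as 1. Since 1 UMI stands for 1 captured transcript whatever its length, UMIs can be set side by side between genes, apart from differences in capture. Levels are given as UMIs per 1000000 UMIs in the table (CPM).

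The table held 304 cells labelled WT and 282 labelled KO. With at least 2000 genes and 20000 UMIs per cell, 259 and 234 cells were kept, with a median of 59649 UMIs per cell in WT (20038 to 496293) and 50281 in KO (20027 to 467384). Cell names give the genotype and a number but neither library nor barcode, so each label was 1 pool, the batches numbered in the labels could not be separated, and barcodes shared between libraries could not be counted. No difference below has a replicate check and no p-value was computed. All intervals are 95% intervals that cover counting error only, not the spread between mice or libraries. The targeted gene, Med23, showed no loss in KO, with 122 UMIs in WT against 117 (5.68 and 7.23 CPM, log2 ratio 0.35, -0.03 to 0.73). Where the deleted part of the gene lies relative to the counted 3' end is not given in the sources used here, so this count does not check the labels, which are therefore used as labels throughout. Cells with over 1000 CPM of 24 oocyte genes numbered 70 in WT and 2 in KO, and values without them (189 and 232 cells) are given beside the results. Only cells above this limit are called cells holding oocyte transcripts below, although cells under it also held some. Among markers of other cell types, 4 of 13 endothelial, 4 of 10 stromal, 3 of 12 lymphocyte, 1 of 10 mast cell and 2 of 13 lineage-gate genes were in the table. Their summed levels were 248 and 323 CPM for endothelium, 45.2 and 14.6 for stroma, 231 and 296 for lymphocytes, 9.22 and 21.3 for mast cells and 148 and 243 for the lineage gate, in WT and KO respectively. The most abundant genes of these lists were Egfl7 (199 and 224 CPM) and Pecam1 (19.5 and 53.0), Col1a1 (16.1 and 0.247) and Pdgfrb (11.9 and 11.1), Nkg7 (171 and 205) and Cd79b (55.4 and 86.3), Cpa3 (9.22 and 21.3), and Ptprc (147 and 219) and Itgam (1.86 and 23.7). Those of the oocyte list were H1foo (438 and 11.4 CPM) and Zp3 (394 and 7.17). Beyond the comparison without cells holding oocyte transcripts, the part of other cells or their transcripts in the differences below was not tested.

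Transcripts of the 5 sort markers spanned a wide range of levels, and the order did not follow the gate. In WT, Ly6a was highest at 273 CPM (266 to 280), followed by Cd34 at 178 CPM (173 to 184), Kit at 157 CPM (152 to 162), Slamf1 at 39.0 CPM (36.4 to 41.7) and Cd48 at 6.80 CPM (5.74 to 7.99). Cd34, whose protein the gate excluded, thus stood far above Slamf1, whose protein it required, and above Kit by less. Without the cells holding oocyte transcripts, Cd34 and Kit were closer in WT, at 174 and 166 CPM. No interval was computed for these 2 values, so their order is open there. In KO, Cd34 came first at 304 CPM (295 to 312), ahead of Ly6a at 189 CPM (183 to 196), Kit at 115 CPM (110 to 120), Slamf1 at 8.16 CPM (6.83 to 9.67) and Cd48 at 5.25 CPM (4.196 to 6.496). Among all kept cells, no 2 neighbours in either order had overlapping counting intervals. Among all genes, Cd34 lay at percentile 91.3 of the levels in WT and 95.5 in KO, whereas Slamf1 lay at percentile 61.4 in WT and 18.6 in KO.

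**Figure D1:**
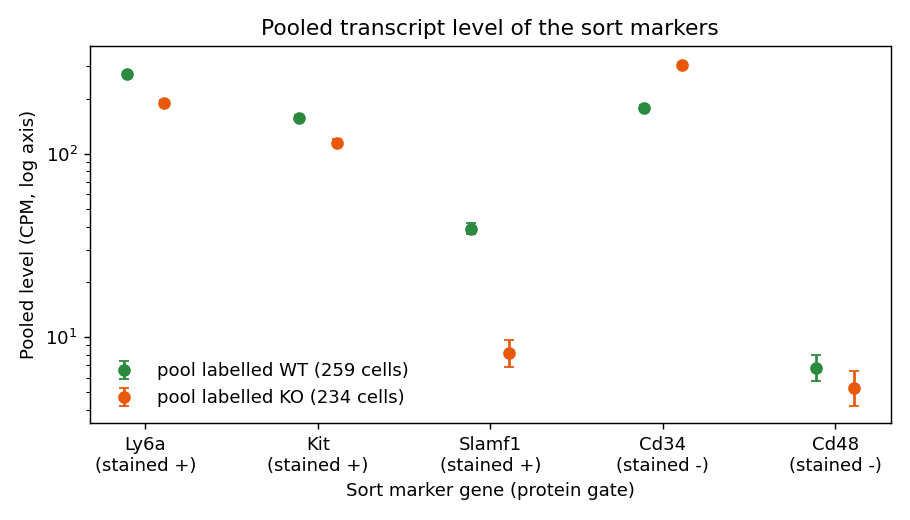
Pooled level of each sort marker in CPM (log axis) for the pools labelled WT (green, 259 cells) and KO (orange, 234 cells), with exact 95% Poisson intervals. Slamf1 shows the widest gap between the labels (39.0 against 8.16 CPM), and Cd34 is the marker that is higher in KO (304 against 178 CPM).

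Slamf1 differed most between the labels. The WT pool held 837 of its UMIs and the KO pool 132, which is a level 4.78-fold lower in KO (3.97 to 5.78). On the log2 scale the ratio of KO over WT was -2.26 (-2.53 to -1.99). Cd34 went the other way, with 3827 UMIs in WT and 4914 in KO, or 1.70-fold higher in KO (1.63 to 1.78, log2 ratio 0.77, 0.71 to 0.83). The marker with the largest ratio in each direction therefore came from the opposite side of the gate. Over all genes the median log2 ratio was 0.02, and the central 90% ran from -1.45 to 1.18. The ratio of Slamf1 lay at percentile 2.94 of all genes and that of Cd34 at percentile 88.3.

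Kit and Ly6a were lower in KO by smaller amounts. For Kit, 3367 UMIs in WT and 1858 in KO gave a log2 ratio of -0.45 (-0.53 to -0.37). For Ly6a, 5861 against 3063 UMIs gave -0.53 (-0.59 to -0.46). Both ratios differed between settings. When every cell was first thinned at random to 20000 UMIs, so that deep cells did not count for more, the log2 ratio was -0.25 for Kit and -0.72 for Ly6a, and among cells with at least 3000 genes and 30000 UMIs it was -0.36 for Ly6a. Cd48, at 146 and 85 UMIs, had a ratio whose counting interval included no difference (-0.37, -0.78 to 0.02).

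By size, 1 of the 5 markers, Slamf1, was past 2-fold, against 14.9% of all genes in either direction (7.94% lower and 6.98% higher in KO). The counting interval lay off a ratio of 1 for 4 of the 5, against 74.9% of all genes (35.7% lower and 39.2% higher in KO), a share so large that an interval off 1 sets no gene apart in these pools. The direction of the ratio was the same for all 5 markers without the cells holding oocyte transcripts, with log2 ratios of -2.29 for Slamf1, -0.39 for Cd48, -0.53 for Kit, -0.55 for Ly6a and 0.81 for Cd34.

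**Figure D2:**
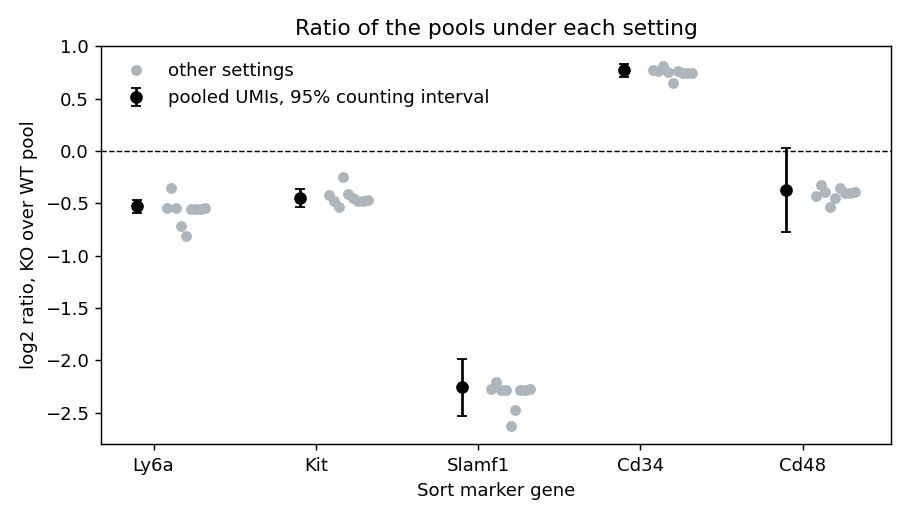
Log2 ratio of the KO over the WT pool for each sort marker, with the pooled value and its 95% counting interval in black and the values under 9 other settings in grey. Slamf1 stays between -2.63 and -2.21 and Cd34 between 0.64 and 0.81, while Kit (-0.53 to -0.25) and Ly6a (-0.81 to -0.36) are more spread.

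The promoters of Slamf1 and Cd34 are printed because these markers had the largest ratio in each direction. Both sequences run from 250 bases before to 50 bases after the annotated start of the gene, on the plus strand of build GRCm38.p6, and are credited to RefSeq, which gave a promoter for 4 of the 5 markers. The capitals mark GATAA and GGAAG on either strand, the core letters of sites bound by GATA and ETS factors, families that act in blood stem cells.
Slamf1, chr1:171766882-171767181: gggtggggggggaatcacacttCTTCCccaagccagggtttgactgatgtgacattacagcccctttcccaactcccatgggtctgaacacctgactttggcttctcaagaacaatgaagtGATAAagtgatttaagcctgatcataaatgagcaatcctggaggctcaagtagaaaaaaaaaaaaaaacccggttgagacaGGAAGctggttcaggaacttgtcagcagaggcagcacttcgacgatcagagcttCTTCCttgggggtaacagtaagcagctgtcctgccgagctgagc
Cd34, chr1:194938571-194938870: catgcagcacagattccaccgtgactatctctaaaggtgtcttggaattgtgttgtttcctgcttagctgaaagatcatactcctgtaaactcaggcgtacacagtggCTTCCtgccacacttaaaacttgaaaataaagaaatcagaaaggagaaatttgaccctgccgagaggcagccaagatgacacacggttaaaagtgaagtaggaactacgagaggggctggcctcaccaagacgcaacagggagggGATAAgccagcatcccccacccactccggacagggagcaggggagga
The Slamf1 window held GATAA 1 time and GGAAG 3 times, and the Cd34 window held each motif 1 time. Of 32851 promoter windows of this length, 25.4% held GATAA and 71.4% held GGAAG, with 16.5% holding GGAAG 3 or more times. A match is a run of letters and not a measured site.

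The number of cells with the transcript showed how each level arose. To compare cells of unequal depth, each was thinned to 20000 UMIs before cells with at least 1 UMI of a gene were counted. Slamf1 was found in 63 of 259 WT cells (24.3%, 19.2 to 30.02) and in 14 of 234 KO cells (5.98%, 3.31 to 9.83), a difference of -18.3 percentage points (-24.6 to -12.0). Although every cell had been sorted as CD150+, most cells of either label had no Slamf1 UMI at this depth. Without thinning the shares were 35.9% and 8.12%.

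Among cells with Slamf1, the median was 2 UMIs in both labels, and the most in any thinned cell was 11 in WT and 5 in KO. Cells with 5 or more Slamf1 UMIs made up 4.25% of WT and 0.427% of KO cells. In the unthinned pools, the 10 cells with the most Slamf1 held 42.1% of its UMIs in WT and 90.2% in KO, where a single cell held 18.9%. The labels thus differed in the number of cells with the transcript more than in the typical count within those cells, although the KO values rest on 14 cells.

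Ly6a and Kit, the other markers required by the gate, were found in most cells of both labels. Ly6a was found in 69.1% of WT (63.1 to 74.7) and 57.3% of KO cells (50.7 to 63.7), a difference of -11.8 points (-20.5 to -3.05). Ly6a was the most uneven of the abundant markers. Across cells its level before thinning ran from 0 to 7870 CPM with a median of 116 CPM in WT, and from 0 to 1411 CPM with a median of 34.3 CPM in KO, so WT cells reached higher levels than any KO cell and the labels overlapped below 1411 CPM. Cells with 5 or more thinned UMIs of Ly6a made up 41.7% of WT and 28.2% of KO cells. Without thinning Ly6a was found in 87.3% and 70.5% of cells.

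Kit was found in 70.7% of WT (64.7 to 76.1) and 59.0% of KO cells (52.4 to 65.3), a difference of -11.7 points (-20.3 to -2.97). Its per-cell level ran from 0 to 1249 CPM with a median of 96.3 CPM in WT, and from 0 to 918 CPM with a median of 53.5 CPM in KO. The share of cells with 5 or more Kit UMIs was 20.8% in WT and 19.7% in KO, so the labels were closer among Kit-rich cells than in the share with any UMI. In cells that had Kit, the median was 3 UMIs in both labels. Without thinning the shares were 86.5% and 72.6%.

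Cd34 transcripts were found in most of these CD34- cells. They were present in 71.0% of WT (65.1 to 76.5) and 85.5% of KO cells (80.3 to 89.7), a difference of 14.4 points (6.91 to 21.7). Per-cell Cd34 ran from 0 to 1140 CPM with a median of 116 CPM in WT, and from 0 to 1555 CPM with a median of 231 CPM in KO. Cells with 5 or more Cd34 UMIs made up 28.2% of WT and 50.4% of KO cells, so the difference included cells rich in the transcript. Without thinning the shares were 83.0% and 92.7%.

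Without the cells holding oocyte transcripts, the WT and KO shares were 25.4% and 6.03% for Slamf1, 68.8% and 57.3% for Ly6a, 73.5% and 58.6% for Kit and 71.96% and 85.3% for Cd34.

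Cd48 was found in 11 WT cells (4.25%, 2.14 to 7.47) and 10 KO cells (4.27%, 2.07 to 7.72), a difference of 0.03 points (-3.88 to 4.07). Of the 2 proteins the gate excluded, Cd48 was therefore rarely detected as a transcript and Cd34 was detected in most cells. The few cells with Cd48 carried nearly all of it, with 94.5% of its WT UMIs and 92.9% of its KO UMIs in 10 cells. Without thinning it was found in 6.18% and 6.41% of cells, and without the cells holding oocyte transcripts in 4.23% and 4.31%.

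**Figure D3:**
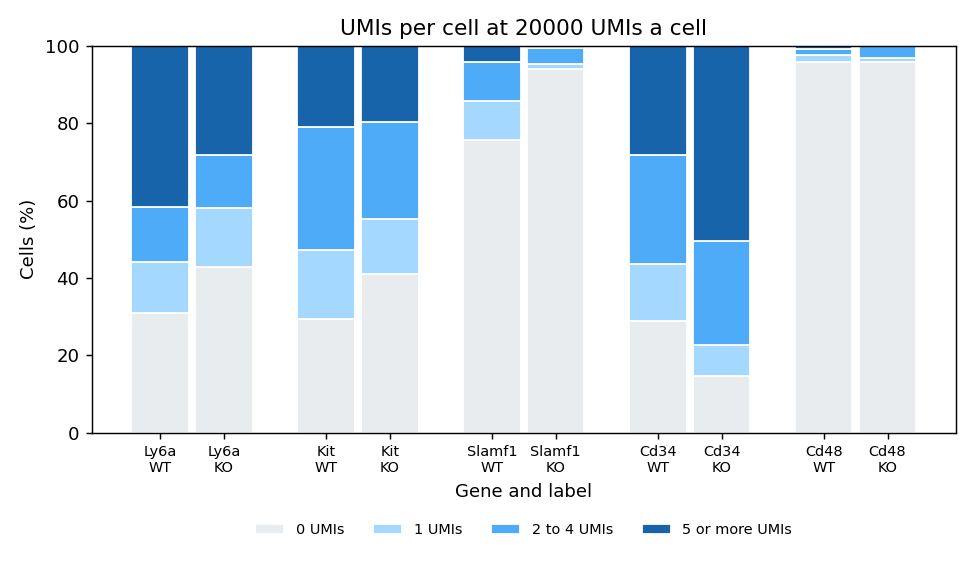
Percent of kept cells with 0, 1, 2 to 4 or 5 or more UMIs of each sort marker after thinning to 20000 UMIs, by label. Grey bars (no UMI) take up 75.7% of WT and 94.0% of KO cells for Slamf1 and over 95% for Cd48 in both labels, and the darkest class of Cd34 grows from 28.2% in WT to 50.4% in KO.

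No cell type that should lack these markers was present in the table, so the oocyte genes served as a gauge of transcripts from elsewhere. In WT cells below the oocyte limit, the 24 oocyte genes were each found in 0.529% to 35.98% of cells (median 11.1%) and reached at most 24.98 CPM. In KO cells below the limit the shares were 0% to 11.6% (median 1.72%), and the highest level was 11.2 CPM. Ly6a, Kit and Cd34 lay above these ranges in both labels. The shares of Cd48 in both labels, and the share and the level of Slamf1 in KO, lay inside them and cannot be told apart from background on this gauge. In WT, Slamf1 had a share inside the range (25.4% of cells below the oocyte limit) and a level above it (40.0 CPM). The ranges are capped by the limit itself, which left out the cells richest in oocyte genes. Over all kept WT cells, H1foo stood at 438 CPM and Zp3 at 394 CPM, above all 5 markers, and Zp3 was found in 48.3% of cells. A place above the ranges therefore does not by itself set a marker clear of transcripts from elsewhere. WT had the higher gauge, and the part of such transcripts in the Slamf1 difference was not tested further. In the 70 WT cells above the oocyte limit Slamf1 stood at 36.2 CPM.

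The markers were then examined together in single cells, since the gate requires all 5 conditions at once. For each of the 10 pairs, the share of cells with a UMI of both genes was set beside the product of the 2 single shares. In all 20 combinations of pair and label, the product lay inside the exact interval of the observed share. The largest gap was 1.35 percentage points in WT and 0.964 in KO, and the median odds ratio was 0.95 and 0.94. Without the cells holding oocyte transcripts the product again lay inside the interval in all 20, with a largest gap of 2.36 points in WT and 0.951 in KO and a median odds ratio of 1.06 and 0.94. Kit and Ly6a, for example, were found together in 47.9% of WT cells (product 48.8%) and 34.6% of KO cells (product 33.8%). Slamf1 and Kit were found together in 18.5% of WT cells (product 17.2%) and 2.56% of KO cells (product 3.53%).

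Slamf1 and Cd34, whose proteins define opposite sides of the gate, were found together in 47 of the 63 WT cells with Slamf1 (74.6%), against 69.9% of WT cells without it. In KO the same shares were 85.7% of 14 cells and 85.5% of 220. Below the oocyte limit they were 81.2% of 48 and 68.8% of 141 cells in WT. Slamf1 and Cd48 met in 2 WT cells and in 0 of 234 KO cells, for which the exact interval reaches 1.56% and a limit of 3 counts 1.28%. Across cells, Pearson's r between any 2 of the markers (log2 of thinned UMIs plus 1) ran from -0.08 to 0.14 over both labels. Such values in sparse counts from shared libraries are no finding in either direction, and weak pairing was not detectable at this depth.

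**Figure D4:**
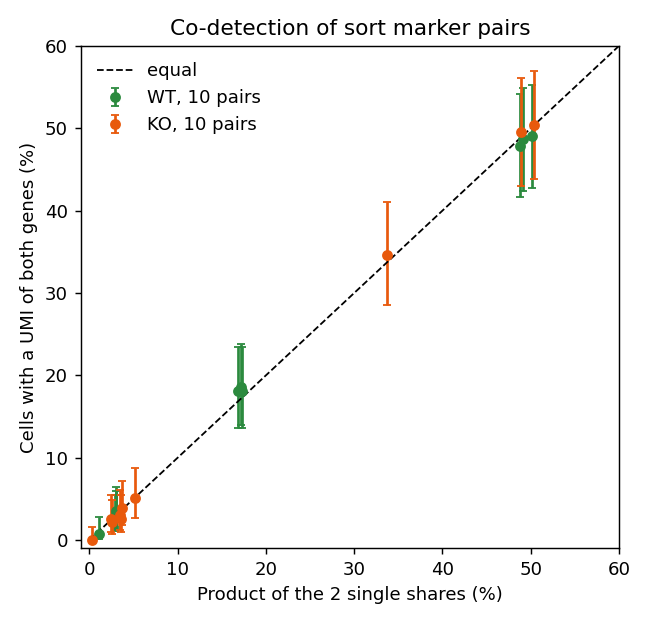
Percent of cells with a UMI of both genes against the product of the 2 single shares, for 10 pairs in WT (green) and 10 in KO (orange), with exact 95% binomial intervals and a dashed line of equality. Every interval crosses the line, and the largest distance from it is 1.35 points in WT and 0.964 in KO.

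Transcripts that matched the full gate were rare. A UMI of Ly6a, Kit and Slamf1 with none of Cd34 and Cd48 was seen in 9 of 259 WT cells (3.47%, 1.60 to 6.49). In KO it was seen in 0 of 234 cells, for which the exact interval reaches 1.56% and a limit of 3 counts 1.28%. The product of the 5 single shares gives 8.53 WT cells, so the WT count restates those shares. No such value was computed for this pattern in KO, and its 0 is not read as a loss beyond the single shares. For 2 KO patterns with required markers the product was near the count. Kit and Ly6a alone had 10.3 against 12 cells, and Slamf1, Kit, Ly6a and Cd34 without Cd48 had 3.87 against 4. All 3 required markers, whatever the excluded ones, were seen in 37 WT cells (14.3%, 10.3 to 19.1) and 4 KO cells (1.71%, 0.468 to 4.32). Ly6a and Kit without Cd34 and Cd48 were seen in 14.3% of WT (10.3 to 19.1) and 5.13% of KO cells (2.68 to 8.79). Conversely, a UMI of at least 1 excluded marker was seen in 72.2% of WT (66.3 to 77.6) and 85.9% of KO cells (80.8 to 90.1), nearly always of Cd34. Without the cells holding oocyte transcripts the full pattern was seen in 2.65% of WT cells and again in no KO cell, and all 3 required markers in 14.3% of WT and 1.72% of KO cells.

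Of the 32 possible combinations, 22 were seen in WT and 17 in KO. The most frequent in both was Kit, Ly6a and Cd34 without Slamf1 and Cd48, in 54 WT cells (20.8%) and 63 KO cells (26.9%). The same set with Slamf1 added was seen in 27 WT cells (10.4%) and 4 KO cells (1.71%). Cd34 alone was seen in 12 WT cells (4.63%) and 32 KO cells (13.7%). No cell had all 5, and 3 WT and 5 KO cells had none. Without the cells holding oocyte transcripts, Kit, Ly6a and Cd34 was again the most frequent set (22.8% of WT and 26.7% of KO cells), the set with Slamf1 added was at 11.6% and 1.72%, and Cd34 alone at 3.70% and 13.8%.

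**Figure D5:**
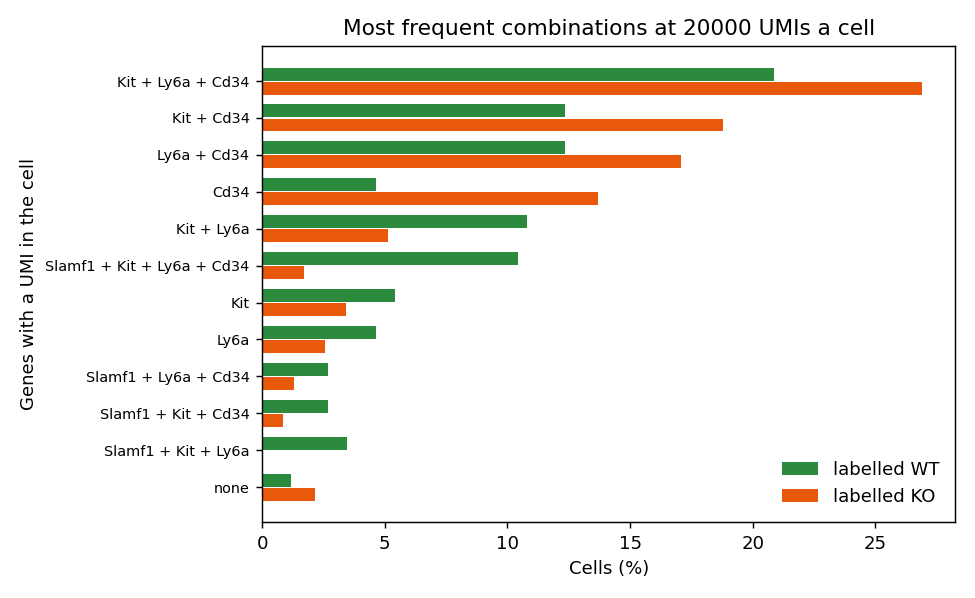
Percent of cells labelled WT (green) and KO (orange) for the 12 most frequent combinations of sort marker transcripts, thinned to 20000 UMIs a cell. Combinations with Cd34 but not Slamf1 lead in both labels and are longer in KO, while Kit, Ly6a and Cd34 with Slamf1 is 10.4% in WT and 1.71% in KO.

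Related genes were described by lists, as counts and medians with no test. In cells below the oocyte limit, Slamf8, Mitf, Spred2, Plaur, Cxcr4 and Thy1 had levels inside the range of the oocyte genes in both labels. On that gauge these levels cannot be told apart from background, and the part of background in their ratios was not tested. Cd244, Cbl, Selp, Flt3 and Il12rb1 had levels inside the range in WT only. Over all genes 7.94% were past 2-fold in the WT direction, 6.98% in the KO direction and 14.9% in either, and the counts below are read against these shares. Of 12 SLAM receptors and adaptors, 6 were in the table, with a median log2 ratio of -0.22. Slamf1 and Slamf8 (6.15 and 3.03 CPM, -1.02, -1.53 to -0.54) were past 2-fold in the WT direction and Cd244 (1.82 and 14.8 CPM, 3.02, 2.53 to 3.55) in the KO direction. Cd244 encodes 2B4, the receptor for CD48 and itself a progenitor marker of the SLAM code, and was found in 1.54% of WT and 14.96% of KO cells. The family member with the highest level was Cd84, a receptor that binds itself, at 86.1 and 104 CPM (0.27, 0.18 to 0.37). The ratios of Slamf1 and Cd244 had opposite signs, and both genes lie in the same cluster of SLAM genes on chromosome 1. With 39 UMIs in the 259 kept WT cells and 239 in the 234 kept KO cells, Cd244 entered the table through KO. The contrast is therefore between 2 genes that passed the filter and is not a result about the family. When cells holding oocyte transcripts were left out the list median was -0.27, Cd244 had 2.95 and Cd84 0.10, and Slamf8 (-0.82) was no longer past 2-fold.

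Of 31 genes of Kit signalling, 27 were in the table, with a median log2 ratio of 0.39, opposite in sign to the ratio of Kit itself. In all 4 of the 27 (14.8%) were past 2-fold, a share near that of all genes (14.9%). The 3 past 2-fold in the KO direction were Cbl, a ubiquitin ligase that targets the activated receptor (14.4 and 30.5 CPM, 1.08, 0.87 to 1.29), Plcg2, a phospholipase (62.9 and 146 CPM, 1.21, 1.11 to 1.31), and Spred2, an inhibitor of the Ras pathway (2.89 and 9.02 CPM, 1.64, 1.21 to 2.10). The 1 in the WT direction was Mitf, a transcription factor of mast cells and melanocytes (11.5 and 0.927 CPM, -3.63, -4.49 to -2.88). The most abundant were Ptpn6, a phosphatase that dampens Kit signals (190 and 229 CPM, 0.27), and Stat3, a signal transducer (117 and 184 CPM, 0.64). Leaving out cells with oocyte transcripts gave a median of 0.32, and Pik3ca (1.04), a lipid kinase subunit, then joined the same 4 genes past 2-fold.

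Of 18 Ly6 genes, 4 were in the table, with a median log2 ratio of 0.00 and none past 2-fold. Ly6e was highest at 667 and 625 CPM (-0.09, -0.13 to -0.06). Ly6a and Ly6e were the 2 members of 4 whose counting interval lay below a ratio of 1, against 35.7% of all genes. Such an interval sets no gene apart in these pools. Ly6a has near-identical relatives, so reads could have been shared with genes that are not analysed here, and its count is uncertain to that extent. The interferon response list, which holds Ly6e but not Ly6a, had 28 of 29 genes in the table and a median of 0.52, with 5 (17.9%) past 2-fold in the KO direction, against 6.98% of all genes, and 0 in the WT direction. Its most abundant genes were Ifitm1 (1993 and 1960 CPM, -0.02) and Ifitm3 (1470.5 and 1788 CPM, 0.28). Ly6a, an interferon-induced gene, thus had the opposite sign to the median of that list. In cells below the oocyte limit the Ly6 median was 0.02, with Ly6e at -0.15 and Plaur (1.07) past 2-fold, and the interferon median was 0.57, with 7 past 2-fold in the KO direction.

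Of 10 genes of the CD34 family and its partners, 6 were in the table, with a median log2 ratio of 0.56. Selp, an adhesion receptor (P-selectin), was past 2-fold in the KO direction at 18.1 and 40.2 CPM (1.16, 0.97 to 1.34), and Cd164, another sialomucin, stood at 69.1 and 83.5 CPM (0.27). Genes listed as multipotent progenitor markers had 10 of 20 genes in the table, a median of 1.02 and 6 past 2-fold, all in the KO direction, against 6.98% of all genes. They included Prtn3, a granule protease (82.7 and 268 CPM, 1.69, 1.61 to 1.78), and Flt3, a cytokine receptor of multipotent progenitors (12.94 and 26.5 CPM, 1.03, 0.81 to 1.26). The most abundant after Prtn3 was Spn, the sialoglycoprotein CD43 (87.9 and 116 CPM, 0.40, 0.31 to 0.49). Below the oocyte limit the median of the CD34 family was 0.58 and that of the progenitor genes 0.95, with 5 past 2-fold.

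Surface markers of stem cells other than the gate did not move one way. Of 27 genes, 26 were in the table, with a median log2 ratio of 0.35, 2 past 2-fold in the WT direction and 1 in the KO direction (11.5% in either, against 14.9% of all genes). Esam, an adhesion molecule of stem cells, was at 104 and 39.9 CPM (-1.39, -1.52 to -1.26) and was found in 57.1% of WT and 23.9% of KO cells. Thy1 was at 7.59 and 1.05 CPM (-2.85, -3.67 to -2.13), and Il12rb1 at 8.57 and 18.2 CPM (1.09, 0.82 to 1.36). The level of Thy1 in both labels, and that of Il12rb1 in WT, lay inside the range of the oocyte genes. The abundant members Cd47, the signal that protects cells from phagocytes, and Cd27, a receptor of the TNF family, were at 498 and 503 CPM (0.02) and at 188 and 261 CPM (0.48). Stem cell transcription factors, 24 of 24 in the table, had a median of -0.06, and the most abundant were Lmo2 (511 and 438 CPM, -0.22) and Meis1 (292 and 439 CPM, 0.59). The medians in cells below the oocyte limit were 0.29 for the surface markers and -0.15 for the transcription factors. Esam (-1.43) and Thy1 (-2.45) stayed past 2-fold, and Cxcr4 (1.07), a chemokine receptor, took the place of Il12rb1.

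Cells with and without a UMI of each marker were then compared within a label, as sums of thinned UMIs. Cells with Ly6a had fewer cell cycle transcripts (22 genes) than cells without it in both labels, at a mean of 26.2 against 45.0 UMIs in WT and 22.5 against 32.3 in KO. The medians were 13 against 24.5 in WT and 11 against 12.5 in KO, so in KO the medians were closer than the means. The cell cycle list itself had a median log2 ratio of -0.38 between the labels (-0.52 without cells holding oocyte transcripts), and its most abundant genes were Pcna (250.05 and 234 CPM, -0.10) and Mcm6 (223 and 198 CPM, -0.17). WT cells with Ly6a also had more interferon-response transcripts, at a median of 125 against 90.0 UMIs, whereas in KO the medians were 130.5 and 125. These WT cells differed in depth as well, with a median of 53594 UMIs before thinning in cells with Ly6a and 71216 in cells without it. Among cells below the oocyte limit, the medians in WT were 12 against 29 for the cell cycle and 127.5 against 84 for the interferon response, and in KO 11 against 13 and 130 against 125. That the labels differ in this respect was not tested.

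KO cells with Cd34 had a median of 14 UMIs of the genes listed as multipotent progenitor markers, Prtn3 among them. The 34 KO cells without Cd34 had 10.5, and in WT the medians were 6 and 5. Of the summed level of these genes, Prtn3 alone gave 268 of 727 CPM in KO and 82.7 of 364 CPM in WT. Cells with Cd48 had a median of 13 UMIs of these genes against 6 in WT and 15 against 13 in KO, on 11 and 10 cells. For Slamf1 the same medians were 7 in cells with it and 6 in cells without it in WT, and for Kit they were 6 and 4. In KO the median was 13 in all 4 of these groups. The means did not always go the same way as the medians. In WT the mean was 7.69 UMIs in cells with Kit against 8.53 without it, and 7.93 against 7.95 for Cd34. In KO the mean was lower in the 14 cells with Slamf1 than in those without it (log2 of with over without -0.23). Below the oocyte limit the medians were the same for Cd34, Slamf1, Kit and the KO cells with and without Cd48, and in WT they were 12 in 8 cells with Cd48 against 6. For Ly6a the medians in all kept cells were 7 with it and 4 without it in WT (means 8.92 and 5.725), and 13 in both groups in KO. The Ly6a values were not computed below the oocyte limit.

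For each marker, the 3 genes most like it were ranked by the mean of Pearson's r in WT (259 cells) and KO (234 cells) over the 9325 genes that averaged 0.5 UMI or more in the kept cells. The values are low, the cells share libraries and depth, and 8 of the 15 genes were again among the top 3 without cells holding oocyte transcripts, so they are given as a description. Ly6a was nearest to Cd74 (r of 0.39 and 0.15), the invariant chain of MHC class II, to Procr (0.30 and 0.19), which encodes the stem cell marker EPCR, and to B2m (0.24 and 0.22), the light chain of MHC class I. Cd34 was nearest to Ctla2a (0.20 and 0.28), Serpinb1a (0.17 and 0.32), a protease inhibitor, and Coro1a (0.19 and 0.24), an actin-binding protein of blood cells. Slamf1 was nearest to Gata1 (0.14 and 0.35), the transcription factor of erythroid and megakaryocytic cells, and then to Rab11a (0.17 and 0.18) and Fam160b2 (0.11 and 0.24). By Spearman's rho Gata1 was at 0.13 and 0.14 and left the top 3, and the KO values of Slamf1 rest on 14 cells. The level of Gata1 was lower in KO, at 660 and 177 UMIs (log2 ratio -1.49, -1.74 to -1.25). A link between the 2 genes was not tested. Kit was nearest to Rab3gap2 (0.13 and 0.20), Uqcc3 (0.21 and 0.12) and Washc1 (0.10 and 0.22), and Cd48 to H2-T24 (0.29 and 0.25), Hnf4a (0.27 and 0.21) and Rnf103 (0.20 and 0.24), the latter set resting on few cells.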

How the data were processed

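The authors separated reads by barcode, aligned them to an mm9 transcriptome, removed duplicates by UMI, counted transcripts, dropped cells below their quality limits and rarely counted genes, and then normalized them. Neither the aligner nor the method of normalization is given in the sources used here. The authors deposited these normalized counts on a log2 scale, after adding 1.

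After the log2 was reversed, dividing a cell's values by its lowest non-zero value returned the UMI counts, with 100% of values within 0.01 of a whole number. The planned test assumed library labels in the columns. These give only the genotype, so its fallback for pools was used, without tests. Intervals are exact at the 95% level, Poisson for CPM and Clopper-Pearson for ratios and shares of cells. Differences of shares have an interval built from those of both shares. Pooled counts under 3 were raised to 3 in ratios, and 0.5 was added to each cell of the tables behind odds ratios. Hand-picked cells were neither screened for doublets nor clustered.

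The markers and lists were chosen with earlier results of these data known. Named genes are the markers, Med23, the 3 genes most like each marker, and from each list the most abundant 2 and, for the surface families, those past 2-fold. Other genes of the lists were named after their values were seen. The comparison of cells with and without a marker, and 4 further list medians, without cells holding oocyte transcripts were added after the data were seen. Alternatives covered cell limits, thinning depths, scalings, the weight of cells and a minimum of 2 UMIs. Scripts were tested on simulated data and used Python 3.11.15, numpy 2.4.6, pandas 2.3.3, scipy 1.17.1 and matplotlib 3.10.9.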

Additional observations from a re-analysis of the deposited data

Results flagged for a closer look

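The cells below the minimum of 2000 genes and 20000 UMIs (45 labelled WT and 48 labelled KO) entered no comparison, and the markers were detected in them above the limit of 3 counts. In WT these cells held Ly6a at 347 CPM, Kit at 150.1 CPM, Cd34 at 150.1 CPM, Slamf1 at 10.3 CPM (4.14 to 21.2) and Cd48 at 8.83 CPM (3.24 to 19.2). In KO they held Cd34 at 283 CPM, Ly6a at 187 CPM and Kit at 167 CPM, while Slamf1 and Cd48 had 1 UMI each, under the limit of 4.004 CPM. The order of Cd34 and Ly6a in these cells was as in the kept cells of each label. The difference in Kit between the labels was not as in the kept cells (157 CPM in WT and 115 in KO). Here Kit was not lower in KO, with overlapping intervals (122 to 182 CPM in WT and 139 to 199 in KO). The Slamf1 values rest on 7 UMIs in WT and 1 in KO, so the difference seen in the kept cells was not detectable here.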

How the results depend on the processing

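No paired analysis was possible because cell names lack a library number and each label is 1 pool. The analyses without each library, with a replicate block, with DESeq2 and without a gene filter were therefore not run, and differences between mice, libraries and days cannot be told apart from differences between labels. Of 158 alternative values, 127 stayed within the counting interval (where the value has one), 31 moved by more and 0 changed the sign of a value whose interval lay off no difference, and the cause of the shifts was not tested. For list medians the interval was a band set from the typical width of the intervals of their genes. Such a band is not a counting interval of the median. The product of shares lay inside the interval for 20 of 20 pairs under all 6 alternatives.

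With the deposited normalized values averaged over cells, the median of all genes shifted by -0.17, and the log2 ratio was -2.63 for Slamf1, -0.81 for Ly6a and 0.64 for Cd34, or -2.49, -0.67 and 0.79 relative to that median. The Ly6 family median was then -0.15. As the mean over cells of log2(CPM/100 + 1), a scale that shrinks low genes, the difference was -0.23 for Slamf1, -0.20 for Kit, -0.44 for Ly6a and 0.51 for Cd34. Kit had -0.53 without cells holding oocyte transcripts and -0.25 with thinned cells, and Ly6a had -0.72 with thinned cells and -0.36 with the stricter cell minimum. Med23 had -0.40 with that minimum and -0.13 with the deposited values, against 0.35.

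The Slamf1 share differed by -27.8 points without thinning and by -9.58 with a minimum of 2 UMIs. The full gate pattern in WT was 1.54% at 10000 UMIs and 1.16% with a minimum of 2 UMIs. Cells with Cd34 or Cd48 were 84.2% of WT and 92.7% of KO without thinning, 61.0% and 77.4% at 10000 UMIs, and 57.1% and 77.8% with a minimum of 2 UMIs. In WT they were 79.4% at 30000 UMIs. Without cells holding oocyte transcripts, an alternative added after the data were seen, the log2 of mean UMIs in WT cells with over cells without Ly6a was -0.94 for the cell cycle and 0.54 for the interferon response (-0.78 and 0.45 with them), and for Cd48 and the progenitor genes it was 0.59 (0.94 with them). By Spearman's rho, as without cells holding oocyte transcripts, 8 of the 15 most similar genes were again in the top 3.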
